A study of Homo sapiens with 4 samples.

Results

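The desmosome genes are 10 genes taken by name, *DSG2*, *DSG3*, *DSC2*, *DSC3*, *JUP*, *PKP1*, *PKP2*, *PKP3*, *DSP* and *PERP*, and all 10 were found among the 16813 genes listed in at least 1 library. Of these, 7 were among the 13148 genes that passed a filter on low counts and were tested, and *DSG3*, *DSC3* and *PKP1* were left out by that filter because almost no reads were assigned to them. RNA was sequenced from PC9 cells, an *EGFR*-mutant lung adenocarcinoma line, and from PC9OR cells, their derivative resistant to the EGFR inhibitor osimertinib, with 2 biological replicates of each line. PC9 cells carried the labels WT and control, PC9OR cells carried WT and osimertinib resistant, and both lines were kept in RPMI medium with 10% fetal bovine serum. The labels do not say whether osimertinib was present at harvest, and PC9OR is 1 resistant line, so its resistance and whatever else separates the 2 cultures cannot be told apart.

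Desmosomes are adhesive plaques that tie neighbouring epithelial cells together and anchor their keratin filaments at the membrane. In each plaque, desmosomal cadherins (desmogleins and desmocollins) bridge the gap between cells, the armadillo proteins plakoglobin and plakophilins sit on their cytoplasmic tails, and the plakin desmoplakin connects that layer to keratin. Simple epithelia mostly use desmoglein 2, desmocollin 2 and plakophilin 2, whereas desmoglein 3, desmocollin 3 and plakophilin 1 are known from stratified epithelia such as skin.

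The summed expected counts of the 4 libraries lay between 23201307 and 32203998, so that 3 counts, taken as the smallest amount that the depth can show, were worth 0.0936 to 0.128 CPM (counts scaled to the library total after TMM adjustment). Levels are given below as FPKM, which is per transcript length, and tests were made on the expected counts. Of the lung adenocarcinoma markers, *EPCAM* (139 to 148 FPKM), *KRT7* and *CDH1* were abundant, *MUC1* stood at 0.34 to 3.24 FPKM, *NKX2-1*, *NAPSA* and *CEACAM6* reached at most 0.17 FPKM, and *SFTPB* was listed in none of the libraries. Of 8 markers of immune, endothelial and fibroblast cells, 7 were listed and summed to 5.6 to 6.97 FPKM in PC9 and 2.72 to 2.86 FPKM in PC9OR, most of it *CD68*, whose part in the results was not tested. *CD3E* was listed in none of the libraries and *PTPRC* with 1 count in 1 library. In RNA from a whole culture, fewer cells that express a gene and less RNA per cell cannot be told apart.

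The stretches before the first annotated exon are shown for the 4 desmosomal cadherin genes, which lie in 1 cluster on chromosome 18 but range in level from abundant to barely detected, and for *PERP*, the member with the highest level. They come from the RefSeq promoter table (GRCh38.p14), which had entries for 8 of the 10 genes, and each was placed on GRCh37 by an exact match. Capitals mark CACCTG and its reverse complement CAGGTG, the letters known to be bound by the SNAI and ZEB repressors.
DSG2, chr18:29077890-29078139, plus strand: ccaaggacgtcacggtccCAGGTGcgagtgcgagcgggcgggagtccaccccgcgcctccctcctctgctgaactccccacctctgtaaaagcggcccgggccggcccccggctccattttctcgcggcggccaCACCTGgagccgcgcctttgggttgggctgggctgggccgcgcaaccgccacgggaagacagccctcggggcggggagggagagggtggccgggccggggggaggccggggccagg
DSC2, chr18:28682486-28682634, minus strand: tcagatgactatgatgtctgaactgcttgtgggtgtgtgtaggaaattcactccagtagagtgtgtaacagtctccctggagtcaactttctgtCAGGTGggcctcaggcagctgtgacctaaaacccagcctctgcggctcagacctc
DSG3, chr18:29027454-29027703, plus strand: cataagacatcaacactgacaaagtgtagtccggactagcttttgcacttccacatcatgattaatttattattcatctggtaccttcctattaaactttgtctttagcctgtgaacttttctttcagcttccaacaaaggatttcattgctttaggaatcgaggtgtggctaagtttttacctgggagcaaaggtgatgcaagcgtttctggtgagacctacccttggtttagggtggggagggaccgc
DSC3, chr18:28622782-28622958, minus strand: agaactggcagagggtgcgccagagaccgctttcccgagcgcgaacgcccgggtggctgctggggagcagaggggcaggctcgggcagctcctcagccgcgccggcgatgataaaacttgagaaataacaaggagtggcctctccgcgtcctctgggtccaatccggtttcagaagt
PERP, chr6:138428557-138428806, minus strand: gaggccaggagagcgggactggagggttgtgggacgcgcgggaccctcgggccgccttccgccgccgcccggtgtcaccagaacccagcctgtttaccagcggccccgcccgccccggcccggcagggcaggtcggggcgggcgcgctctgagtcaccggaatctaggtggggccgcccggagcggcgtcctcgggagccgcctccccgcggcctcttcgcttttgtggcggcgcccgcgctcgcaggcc

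Counted over the table's 250-base windows before each start, the windows of *DSG2*, *PERP* and *DSP* were rich in G and C, at 75.2%, 77.2% and 78% with 26, 34 and 33 CpG dinucleotides, beside a median of 58% and 11 CpG over all 35116 windows. The *DSP* window had 0 bases before it met an annotated exon of the gene. Those of *JUP* had 30 and 17, the 17 lying within the annotated span of the gene. The outer window of *DSC2* had 149, that of *DSC3* 177 and that of *PKP1* 196. The counts of all these windows therefore include annotated exon sequence. The *DSG3* window held 42.8% G and C and 4 CpG. The outer window of *DSC2* and the window of *DSC3* were close to each other in base content, at 59.6% and 60.4%, although the first gene was transcribed at several FPKM and the other hardly at all. The inner window of *DSC2* held 66.8% G and C and 19 CpG. CACCTG on either strand occurred in a window of 4 of the 8 genes (*DSG2*, *DSC2*, *DSP* and *JUP*) and in 17.5% of all windows. Counts out of the 8 are by gene and the percentages are by window, so the 2 are not like for like. *DSC2* and *JUP* each had a further window without these letters. The AP-1 letters TGANTCA were found on either strand in 1 of the 8, *PERP*, and in 6.57% of all windows, and the Grainyhead letters AACCGGTT in 0 of the 8 and in 0.117% of all. These are matches of letters and say nothing of binding.

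The comparison of PC9OR with PC9 asks how the resistant line differs from its parent. *DSG2*, *DSC2* and *DSP*, which encode the 2 desmosomal cadherins in use and the keratin linker, fell in PC9OR by between 1.77-fold and 2.25-fold. For *DSP*, the longest, the log2 fold change of -1.001 shrank to -0.35 once a trend with transcript length was removed. None of the other 4 tested members passed an adjusted p under 0.05 in edgeR's quasi-likelihood test. That makes 3 of 7 tested members lower, beside 20.8% of all tested genes, and 0 of 7 higher, beside 15.6%. At an unadjusted p under 0.05, 5 of the 7 would pass, 4 lower, beside 26.7% of all tested genes, and 1 higher, beside 23.9%. DESeq2's Wald test called 1 of the 7 higher, *PERP*, beside 18.6%. The median log2 fold change was -0.44 over the tested members and 0.01 over all tested genes. Counted by libraries, 4 of the 7 tested members were lower and 1 was higher in both PC9OR libraries than in either PC9 library by CPM, and this held for 38.2% and 39.6% of all tested genes.

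**Figure D1:**
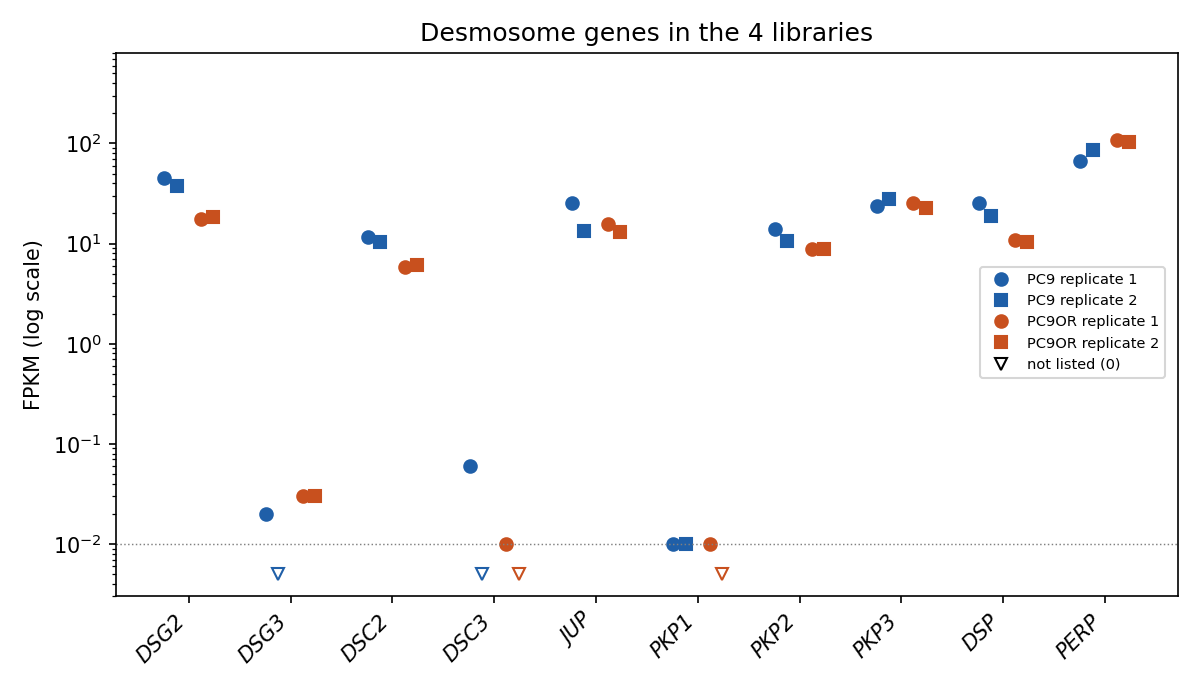
FPKM (log scale) of the 10 desmosome genes in the 4 libraries; circles and squares are replicates 1 and 2 of PC9 (blue) and PC9OR (orange), open triangles mark libraries in which a gene was not listed, and the dotted line is the lowest listed FPKM, 0.01. The PC9OR points of *DSG2*, *DSC2* and *DSP* lie below both PC9 points, those of *PERP* lie above them, and *DSG3*, *DSC3* and *PKP1* lie at or under 0.06.

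*DSG2* (Entrez 1829, GRCh37 chromosome 18, 29078140 to 29128971, plus strand, 15 exons) encodes desmoglein 2, the desmoglein of simple epithelia. Its level was 45.43 and 37.45 FPKM in the PC9 libraries and 17.5 and 18.37 FPKM in the PC9OR libraries. The lines did not overlap, and the gap between them was wider than that between the PC9 replicates. In CPM the means were 342 ± 40.9 and 152 ± 7.12 (SD, n = 2 each). The log2 fold change was -1.17 (SE 0.131, a 2.25-fold fall) with a Benjamini-Hochberg adjusted p of 0.00686 in edgeR's quasi-likelihood test. Among the desmosome genes, *DSG2* was the only one called under each of 14 alternative settings of the fit at an adjusted p under 0.05, with log2 fold changes from -1.30 to -0.88.

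*DSC2* (Entrez 1824, chromosome 18, 28638806 to 28682485, minus strand, 16 exons) encodes desmocollin 2, the partner cadherin. It stood at 11.63 and 10.31 FPKM in PC9 and at 5.9 and 6.16 FPKM in PC9OR. Again every PC9OR library was below every PC9 library, and the replicates of each line were close. Its log2 fold change was -0.82 (SE 0.118, a 1.77-fold fall; adjusted p = 0.0103, edgeR quasi-likelihood). Without replicate 1 or 2 of PC9OR the log2 fold change was -0.77 or -0.86 and the adjusted p was 0.106 or 0.0807, in fits that called fewer genes overall.

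The summed FPKM of *DSG2* and *DSC2* was 57.06 and 47.76 in PC9 and 23.4 and 24.53 in PC9OR. The mixture shifted slightly, because the ratio of *DSG2* to *DSC2* was 3.91 and 3.63 in PC9 and 2.97 and 2.98 in PC9OR, without overlap. For such single ratios, the exact two-sided permutation test of 2 against 2 libraries cannot go below p = 0.333, so none is given as tested.

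The cadherins of stratified epithelia were barely detected. *DSG3* (Entrez 1830, chromosome 18, 29027704 to 29058665, plus strand), which encodes desmoglein 3, had 4.22 and 0 expected counts in PC9 and 7.01 and 7.88 in PC9OR, at most 0.03 FPKM. *DSC3* (Entrez 1825, chromosome 18, 28569331 to 28622781, minus strand), which encodes desmocollin 3, had 15.01 and 0 expected counts in PC9 and 2.51 and 0 in PC9OR, at most 0.06 FPKM. Without the filter on low counts the adjusted p was 0.479 for *DSG3* and 0.395 for *DSC3* in edgeR's test, so a difference between the lines was not detectable at this depth.

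These genes share the cadherin cluster of chromosome 18, where the order on GRCh37 is *CDH2*, *DSC3*, *DSC2*, *DSC1*, *DSG1*, *DSG4*, *DSG3*, *DSG2*, *TTR*, *B4GALT6*, *SLC25A52* and *TRAPPC8*. Only 4 of the 12 passed the filter. *DSG1*, *DSG4* and *TTR* were listed in none of the libraries, *DSC1* had 2 counts in 1 library, *CDH2* (N-cadherin) had 0 to 3 counts and *SLC25A52* 0 to 2.06. *DSC2* and *DSG2* each had neighbours on both sides that were at or near 0 in both lines. Of the expressed neighbours, *B4GALT6*, a galactosyltransferase gene, stood at 2.6 and 2.49 FPKM in PC9 and at 1.05 and 0.97 FPKM in PC9OR (log2 fold change -1.30, adjusted p = 0.00830, edgeR quasi-likelihood). *TRAPPC8*, which encodes a vesicle-tethering subunit, stood at 6.67 and 7.61 FPKM in PC9 and at 8.73 and 8.68 FPKM in PC9OR (log2 fold change 0.32, adjusted p = 0.0984). Of these 4 tested genes 3 fell, the members *DSG2* and *DSC2* and the flanking gene *B4GALT6*, beside 20.8% of all tested genes. *TRAPPC8*, also a flanking gene, was called higher with length offsets (0.64, adjusted p = 0.0267, edgeR quasi-likelihood), beside 17.5%.

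**Figure D2:**
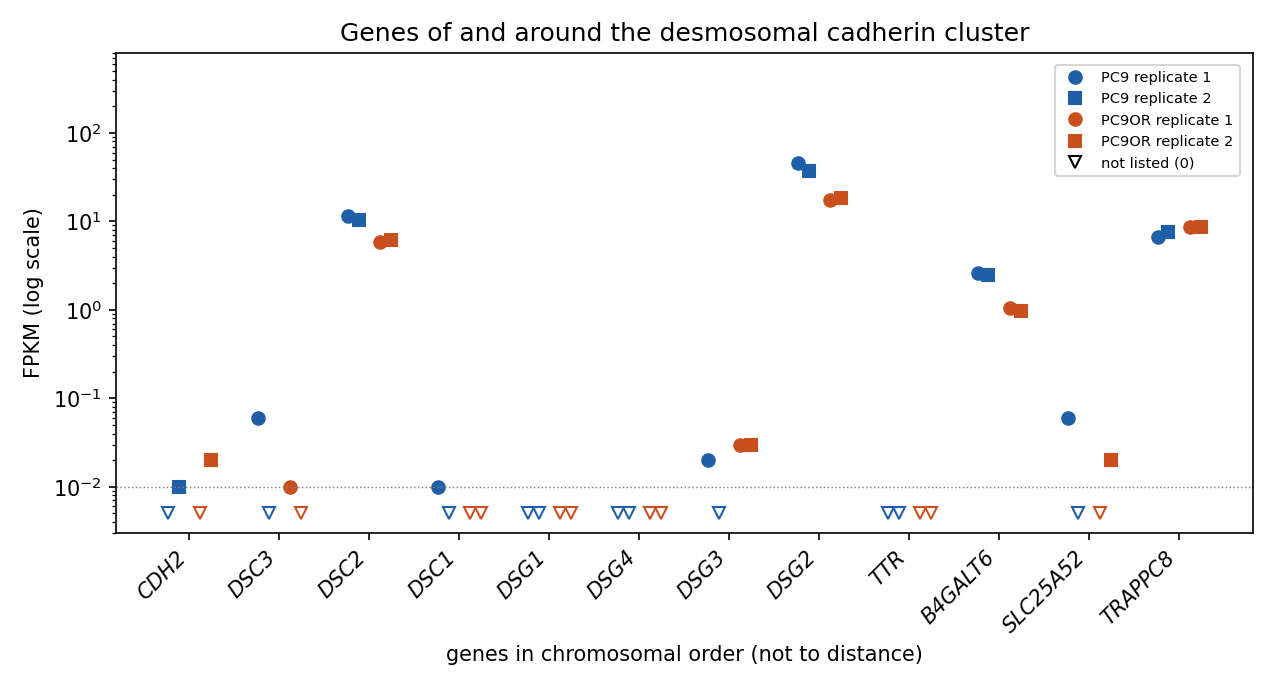
FPKM (log scale) of the 12 genes of and around the chromosome 18 cadherin cluster in their order along GRCh37, not to scale in distance, with symbols as in the plot of all members. *DSC2*, *DSG2* and *B4GALT6* lie lower in both PC9OR libraries, *TRAPPC8* lies higher, and the remaining genes are at or near 0 in all 4 libraries.

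Of the armadillo proteins, none passed the test. *JUP* (Entrez 3728, chromosome 17, 39910856 to 39943183, minus strand, 14 exons) encodes plakoglobin, which also joins adherens junctions. Its level was 25.42 and 13.41 FPKM in PC9 and 15.7 and 12.91 FPKM in PC9OR, so the lines overlapped and PC9 replicate 1 stood alone above the other 3 libraries. This gave a log2 fold change of -0.39 (SE 0.311; adjusted p = 0.357, edgeR quasi-likelihood), whose sign depended on the PC9 library used, at 0.13 without PC9 replicate 1 (adjusted p = 0.462) and -0.79 without PC9 replicate 2 (adjusted p = 0.00826).

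*PKP2* (Entrez 5318, chromosome 12, 32943679 to 33049732, minus strand, 13 exons) encodes plakophilin 2, which recruits desmoplakin to the plaque. It stood at 14.14 and 10.51 FPKM in PC9 and at 8.86 FPKM in both PC9OR libraries. Both PC9OR values were below both PC9 values, but the PC9 replicates differed from each other by more than PC9 replicate 2 differed from PC9OR. With a log2 fold change of -0.44 (SE 0.163; adjusted p = 0.0879, edgeR quasi-likelihood) it missed the threshold, and it was at -0.64 (adjusted p = 0.00324) without PC9 replicate 2 and at -0.24 (adjusted p = 0.0576) without PC9 replicate 1. Of the 50-base words in the *PKP2* transcript, 7.22% also occur in another annotated transcript, the largest share among the 10 genes.

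*PKP3* (Entrez 11187, chromosome 11, 392614 to 404908, plus strand, 13 exons) encodes plakophilin 3, the plakophilin found in most epithelia. Its level was 23.7 and 28.1 FPKM in PC9 and 25.56 and 22.93 FPKM in PC9OR, with overlapping lines. Its log2 fold change of -0.07 (SE 0.139; adjusted p = 0.730, edgeR quasi-likelihood) was the smallest of the 7, and its sign was positive without PC9 replicate 2 (0.06) and without PC9OR replicate 2 (0.0042). *PKP1* (Entrez 5317, chromosome 1, 201252580 to 201302121, plus strand), the plakophilin of stratified epithelia, had 2 and 3 expected counts in PC9 and 2 and 0 in PC9OR, and its adjusted p without the filter was 0.561.

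Summed over *JUP*, *PKP2* and *PKP3*, the armadillo layer stood at 63.26 and 52.02 FPKM in PC9 and at 50.12 and 44.7 FPKM in PC9OR. Set against the summed cadherins, this was a ratio of 1.11 and 1.09 in PC9 and of 2.14 and 1.82 in PC9OR. By FPKM the transcripts of the armadillo proteins were thus in greater excess over those of the cadherins in both PC9OR libraries. These ratios keep the trend with transcript length. Once it was removed, the log2 fold changes were -0.32 for *JUP*, -0.29 for *PKP2*, -0.09 for *PKP3*, -0.88 for *DSG2* and -0.60 for *DSC2*. The ratio of *PKP3* to *PKP2* was 1.68 and 2.67 in PC9 and 2.88 and 2.59 in PC9OR, with overlap.

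*DSP* (Entrez 1832, chromosome 6, 7541571 to 7586947, plus strand, 24 exons) encodes desmoplakin, the obligate link from the plaque to keratin. It stood at 25.35 and 18.69 FPKM in PC9 and at 10.84 and 10.39 FPKM in PC9OR. The lines did not overlap, and the PC9OR replicates were much closer to each other than the PC9 replicates. In CPM the means were 294 ± 58.3 and 147 ± 2.67 (SD, n = 2 each). In the fit the log2 fold change was -1.001 (SE 0.164, a 2.00-fold fall; adjusted p = 0.0132, edgeR quasi-likelihood), and with offsets for transcript length it was -0.35 (adjusted p = 0.0384). Without PC9OR replicate 1 or 2 it stayed at -1.01 or -0.98, while the adjusted p was 0.0589 or 0.0649.

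The deposited transcript length of *DSP*, an average over its 3 RefSeq transcripts weighted by their estimated use, was 9422 and 9401 bases in PC9 and 9491 and 9483 bases in PC9OR. Both PC9OR values were higher, by 75.7 bases between the means. The *JUP* length was 3248 and 3211 bases in PC9 and 3252 and 3273 bases in PC9OR, and for *DSG2*, *PKP3* and *PERP* 1 length was given in all libraries.

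*PERP* (Entrez 64065, chromosome 6, 138409642 to 138428556, minus strand, 3 exons) encodes a tetraspan membrane protein that is a p53 and p63 target and is needed for desmosome assembly in stratified epithelia. It had the highest level of the 10 genes in every library, at 66.24 and 86.33 FPKM in PC9 and at 107.05 and 103.2 FPKM in PC9OR. Each PC9OR value exceeded each PC9 value, opposite to the cadherins and *DSP*. The log2 fold change was 0.49 (SE 0.166, 1.41-fold; adjusted p = 0.0688, edgeR quasi-likelihood), which missed the threshold. It passed under 6 of the 14 alternatives, among them those without a PC9 library but not those without a PC9OR library. The log2 fold change was 0.29 without PC9 replicate 1 and 0.70 without PC9 replicate 2. It was 0.49 without PC9OR replicate 1 and 0.51 without PC9OR replicate 2. The ratio of *PERP* to *DSP* was 2.61 and 4.62 in PC9 and 9.88 and 9.93 in PC9OR, and that of *PERP* to *DSG2* was 1.46 and 2.31 in PC9 and 6.12 and 5.62 in PC9OR. With offsets for transcript length the log2 fold changes were 0.63 for *PERP*, -0.35 for *DSP* and -0.88 for *DSG2*.

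**Figure D3:**
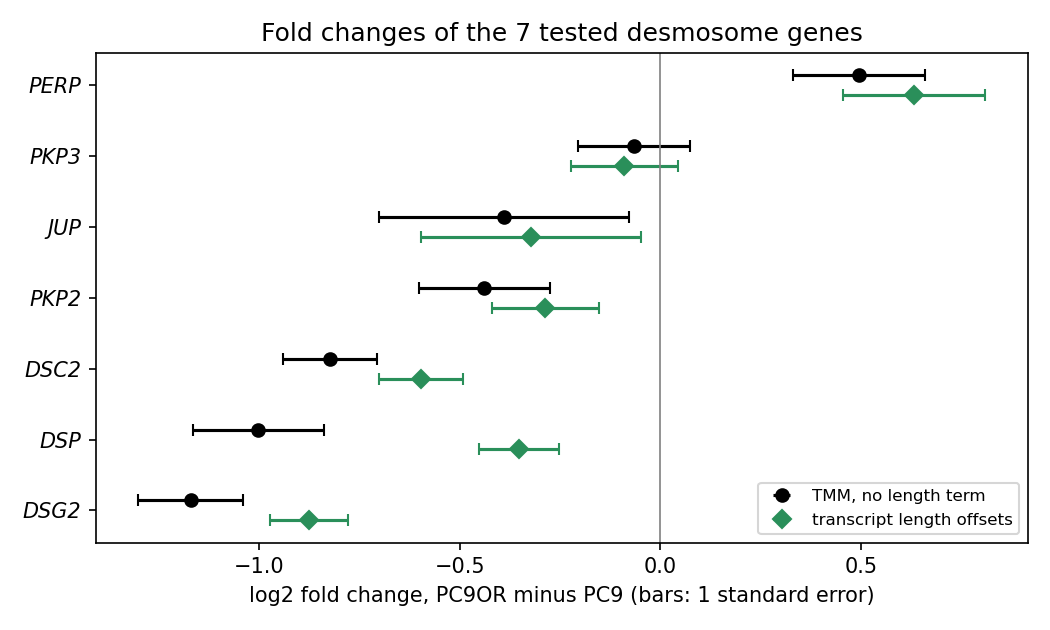
Log2 fold change, PC9OR minus PC9, of the 7 tested desmosome genes, with 1 standard error as bars, without (black circles) and with (green diamonds) offsets for transcript length. *DSG2*, *DSC2* and *DSP* lie below 0 in both fits, *PKP3* lies near 0, *PERP* lies above 0, and *DSP* moves most between the fits, from -1.001 to -0.35.

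The order of the levels by mean FPKM in PC9 was *PERP*, *DSG2*, *PKP3*, *DSP*, *JUP*, *PKP2* and *DSC2*, followed by the 3 genes that were not tested. The replicate ranges of neighbours overlapped from *PKP3* down to *DSC2*, so only *PERP* and *DSG2* were separated in PC9. In PC9OR the order was *PERP*, *PKP3*, *DSG2*, *JUP*, *DSP*, *PKP2* and *DSC2*, and none of these neighbours overlapped. *DSG2* and *PKP3* exchanged places, and *JUP*, level with *DSP* in PC9 replicate 1 and below it in PC9 replicate 2, was above it in PC9OR. The ratio of *JUP* to *DSP* was 1.00 and 0.717 in PC9 and 1.45 and 1.24 in PC9OR, but with offsets for transcript length the log2 fold changes were -0.32 for *JUP* and -0.35 for *DSP*.

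Transcript length moved with the fold changes of all genes and has to be set beside those of the desmosome genes, several of which are long. Over 11429 genes with at least 20 counts in each library, Spearman's correlation of the log2 ratio with length was -0.41 for PC9OR against PC9 and -0.46 for PC9 replicate 2 against replicate 1, but 0.0013 between the PC9OR replicates. Genes, which are not independent replicates, are the points, and both of the first correlations use the PC9 libraries. In the class of 5000 to 6000 bases, which holds *DSG2* and *DSC2*, the median log2 fold change was -0.26 and 32.3% of genes were lower. Over 8000 bases, where *DSP* belongs, the median was -0.70 and 50.4% of genes were lower, whereas in the class of 4000 to 5000 bases of *PKP2* and *PERP* it was -0.15.

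With offsets that remove a smooth trend of count on length in each library, 3 members were lower, beside 20.8% of all tested genes, and 1 was higher, beside 17.5%. The log2 fold change of *DSG2* was then -0.88 (adjusted p = 0.00325, edgeR quasi-likelihood) and that of *DSC2* was -0.60 (adjusted p = 0.00980). That of *DSP* was -0.35 (adjusted p = 0.0384), so the size of its fall was reduced by more than for any other member, though the call was kept. *PERP* was called higher, at 0.63 (adjusted p = 0.0371). *PKP2* stood at -0.29 (adjusted p = 0.137), *JUP* at -0.32 (adjusted p = 0.386) and *PKP3* at -0.09 (adjusted p = 0.622).

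**Figure D4:**
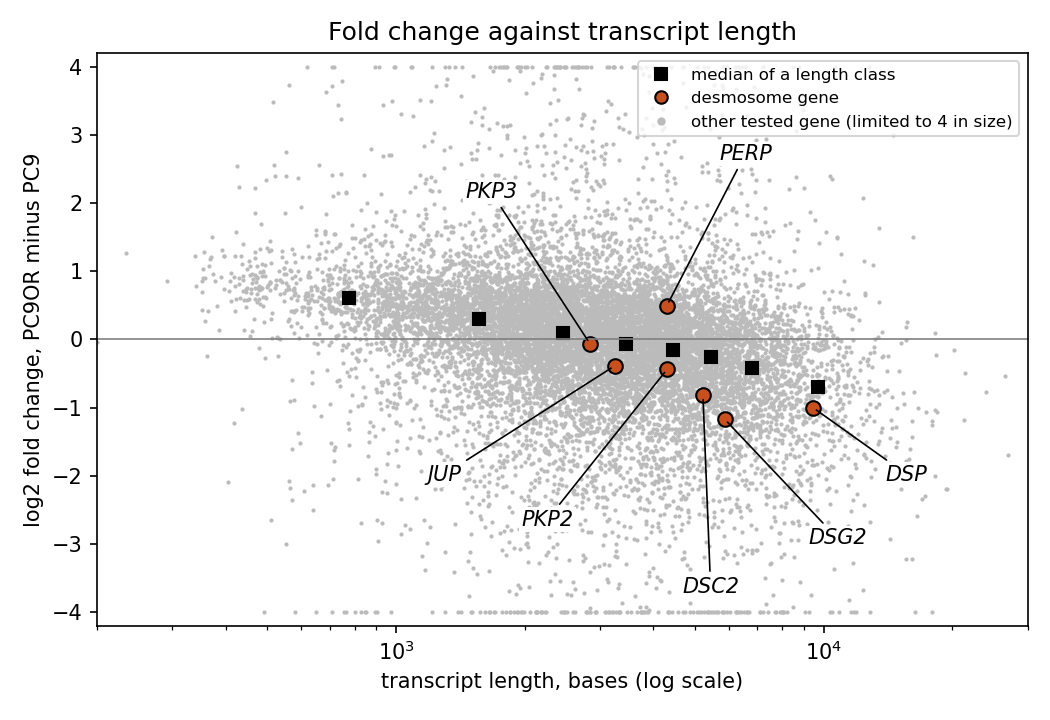
Log2 fold change, PC9OR minus PC9, against transcript length in bases (log scale) for all tested genes (grey), the medians of length classes (black squares) and the 7 tested desmosome genes (orange). The medians run from 0.60 under 1000 bases to -0.70 over 8000 bases. Of the tested desmosome genes, *PERP* lies above the median of its length class and all the others lie below theirs.

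At the study's own threshold of more than 2-fold and an adjusted p under 0.001, 0 of the 10 members were called by edgeR's quasi-likelihood test and 0 of all tested genes were (0%), the smallest adjusted p over all genes being 0.00155. At an unadjusted p under 0.05, 2685 genes (20.4%), 2 of them members (*DSG2* and *DSP*), were more than 2-fold changed, and DESeq2's Wald test called 1735 genes (13.2%) at the study's threshold, again with 2 members.

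Among the other desmosomal genes, *PKP4*, an armadillo protein of several junctions, was the only one tested, at 12.9 and 12.69 FPKM in PC9 and 13.5 and 13.82 FPKM in PC9OR (log2 fold change 0.14, adjusted p = 0.333). *CDSN* (corneodesmosin) had 0 to 4 counts. Of the cytolinkers related to desmoplakin, 5 were tested (in edgeR's test without length offsets). Of these, 2 were lower, beside 20.8% of all tested genes, and 0 higher, beside 15.6%. *DST* (dystonin) stood at 54.7 and 44.89 FPKM in PC9 and at 12.53 and 12.93 FPKM in PC9OR (log2 fold change -1.88, adjusted p = 0.00402), and *PLEC* (plectin) at 49.83 and 29.46 FPKM in PC9 and at 20.8 and 17.64 FPKM in PC9OR (-1.002, adjusted p = 0.0374). With length offsets *DST* stood at -0.75 (adjusted p = 0.00455, edgeR quasi-likelihood) and *PLEC* at 0.09 (adjusted p = 0.678), so 1 was lower, beside 20.8% of all tested genes. With these offsets 2 cytolinkers, *PPL* (periplakin) and *EVPL* (envoplakin), were called higher, at 0.51 and 0.56, beside 17.5%. *MACF1* was not analysed here.

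The keratins that desmoplakin anchors moved the other way in part. Of 8 keratins, 5 were higher, beside 15.6% of all tested genes, and 2 lower, beside 20.8%. With length offsets 4 were higher, beside 17.5%, and 2 lower, beside 20.8%. *KRT8*, of simple epithelia, rose from 669.41 and 778.2 FPKM to 1737.01 and 1716.52 FPKM (log2 fold change 1.28, adjusted p = 0.00568, edgeR quasi-likelihood), its partner *KRT18* rose by 1.13 (adjusted p = 0.00646) and *KRT19* by 0.96 (adjusted p = 0.0116) on the log2 scale. *KRT5*, of basal cells, fell from 16.19 and 14.07 FPKM to 1.14 and 1.06 FPKM (-3.75, adjusted p = 0.00190). Of the 6 squamous markers 5 were tested, with *TP63*, *KRT5* and *KRT6A* lower and *SOX2*, at most 0.27 FPKM, higher, and *DSG3* was left out by the filter. The ratio of *KRT8* to *DSP* was 26.4 and 41.6 in PC9 and 160 and 165 in PC9OR, without overlap. These genes differ widely in length, and with length offsets their log2 fold changes were 1.09 for *KRT8* and -0.35 for *DSP*.

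Of 11 tested adherens junction genes, 1 was higher, beside 15.6% of all tested genes, and 3 were lower, beside 20.8%. With length offsets 1 was higher, beside 17.5%, and 2 were lower, beside 20.8%. *CDH1* (E-cadherin) fell from 69.49 and 49.53 FPKM to 22.02 and 20.07 FPKM (log2 fold change -1.46, adjusted p = 0.00814, edgeR quasi-likelihood). *NECTIN1*, a nectin adhesion receptor, fell by 2.00 on the log2 scale (adjusted p = 0.0113), *CTNND1* (p120 catenin) fell by 0.51 (adjusted p = 0.0368) and *CTNNB1* (beta-catenin) rose by 0.51 (adjusted p = 0.0247). With length offsets *CTNND1* was no longer called (adjusted p = 0.111). The ratio of *DSG2* to *CDH1* was 0.654 and 0.756 in PC9 and 0.795 and 0.915 in PC9OR, higher in both PC9OR libraries. The ratio of *JUP* to *CTNNB1*, which are paralogous armadillo proteins, was 0.283 and 0.145 in PC9 and 0.118 and 0.109 in PC9OR.

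Of 4 hemidesmosome genes, which anchor keratin at the cell base, *CD151* was called, lower at -0.77 (adjusted p = 0.0125, edgeR quasi-likelihood), and 0 were higher. Over all tested genes 20.8% were lower and 15.6% higher. Of 14 tested regulators of epithelial junctions, 4 were lower, beside 20.8% of all tested genes, and 0 higher, beside 15.6%. With length offsets 3 were lower, beside 20.8%, and 0 higher, beside 17.5%. *KLF5*, an epithelial transcription factor, stood at 19.2 and 16.45 FPKM in PC9 and at 11.47 and 10.65 FPKM in PC9OR (log2 fold change -0.69, adjusted p = 0.0156). *PRKCA*, the kinase known to loosen desmosomal adhesion, stood at -1.46 (adjusted p = 0.0195), *SNAI2*, a repressor that binds the letters capitalized above, at -0.77 (adjusted p = 0.0287) and *TP63*, known to activate *PERP*, at -1.94 (adjusted p = 0.0454; 0.0563 with length offsets), from at most 0.29 FPKM. *ZEB2* was listed in none of the libraries.

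**Figure D5:**
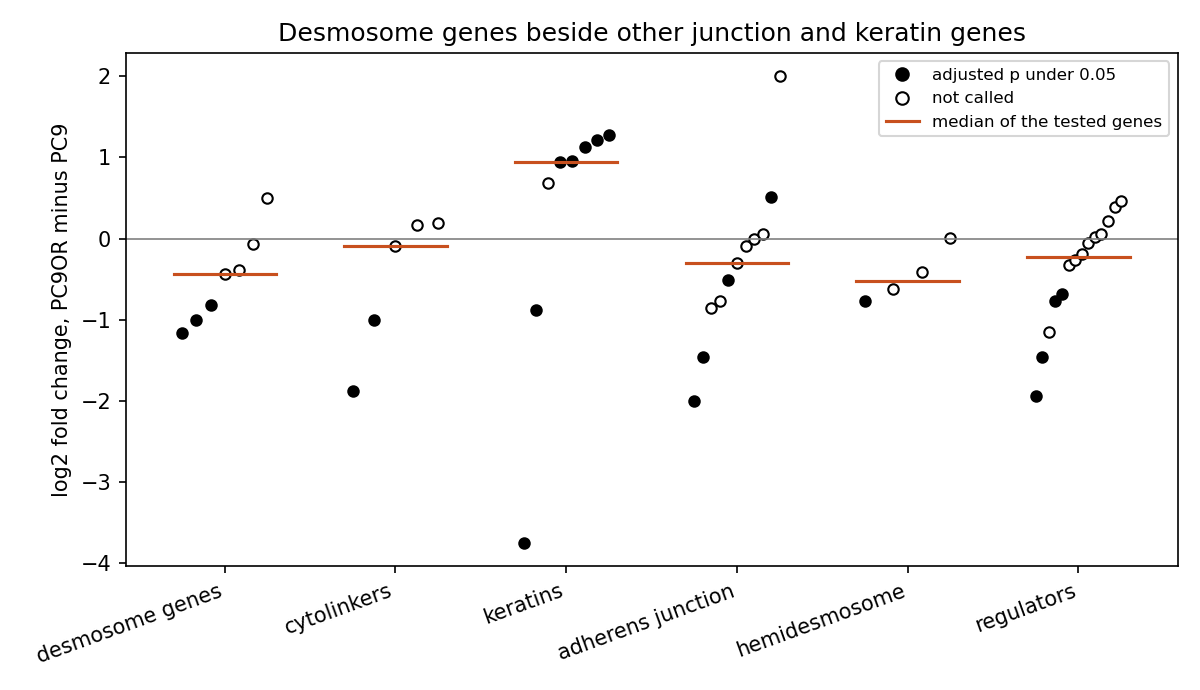
Log2 fold change, PC9OR minus PC9, of the tested genes of each list, 1 point per gene, for the desmosome genes and for lists of cytolinker, keratin, junction and regulator genes; filled points had an adjusted p under 0.05 in edgeR's quasi-likelihood test, open points did not, and lines are medians. The desmosome genes run from -1.17 (*DSG2*) to 0.49 (*PERP*), and among the keratins 5 filled points lie above 0 and 2 below, *KRT5* at -3.75.

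Antisense transcripts overlap *DSG2* (*DSG2-AS1*), *DSC2* (*DSCAS*) and *DSP* (*DSP-AS1*) in the annotation. The library kit keeps the strand, but the strand setting of the counting is not given in the sources used here, so reads of these pairs may not have been told apart. Noncoding genes on the same strand also overlap *DSC2* and *PKP2*, which a strand setting would not separate. For *JUP*, *PKP1*, *PKP3* and *DSP*, 0% of the 50-base words of the transcript occurred in another gene. The share was 3.54% for *DSG2*, 4.57% for *DSC2*, 4.45% for *DSG3*, 2.07% for *DSC3*, 0.916% for *PERP* and 7.22% for *PKP2*.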

How the data were processed

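RNA sequencing of 2 PC9 and 2 PC9OR cultures was used. Per the submitters' processing notes, Bowtie2 2.2.5, RSEM 1.2.12 and GRCh37 were used. For each gene the authors deposited expected counts (estimated reads, not normalized), FPKM values (scaled for transcript length and library size) and a weighted transcript length. Genes not listed in a library were set to 0. Summed counts were 23201307 to 32203998 per library, and limits set by depth cover counting error only.

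Entrez identifiers were matched to symbols for 99.7% of genes. Rounded expected counts were tested with edgeR 4.0.16 under R 4.3.3 (TMM, filterByExpr, glmQLFit, glmQLFTest; Benjamini-Hochberg over 13148 genes), and calls were made at an adjusted p under 0.05. SEs follow from the F statistic. The labels call the replicates biological and do not say how the cultures were separated, so p-values measure the spread between these libraries. The paper names DEGseq for this comparison; it was not run here, as it pools replicates. The length offsets were per-library natural splines (8 df) of log count on log length. Alternatives, whose effects close the text, were DESeq2 1.42.0 size factors and Wald test, library totals, limma 3.58.1 (limma-trend) on log2(FPKM + 1) and log2(FPKM + 0.1), no filter, at least 10 counts in every library, length offsets, a replicate block with and without them, each library left out, and the study's threshold. The scripts were tested on simulated data.

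The members and lists were chosen with earlier results of these data known. All members and cluster genes are named, and of other lists at most 4 called genes by adjusted p, besides genes listed in no library, marker genes, *PKP4*, *CDSN*, and *PPL* and *EVPL*, which were chosen after their values were seen. Positions and exons are from the GENCODE annotation lifted to GRCh37.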

Additional observations from a re-analysis of the deposited data

How the results depend on the processing

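The 3 lower members were kept in number under every alternative normalization, filter, test and length offset, and 0 passed at the study's threshold. With each library left out in turn, 1 to 5 members were lower (1 when a PC9OR library was left out, 5 without PC9 replicate 2) and 0 to 1 higher. *PERP* was called higher by DESeq2's Wald test, beside 18.6% of all tested genes, and with length offsets, beside 17.5%. It was also called higher with the replicate block, beside 2593 of 13148 genes, and with both block and offsets, beside 2733. Leaving libraries out took *JUP* from -0.79 to 0.13 and *PKP3* from -0.20 to 0.0637, with 0.00422 without PC9OR replicate 2; the cause was not tested. The replicate numbers were not shown to pair the libraries. Across the tested genes, which are the points, replicate 1 minus 2 in PC9 and in PC9OR correlated at 0.0637. With the block, *DSG2* stood at -1.17, *DSC2* at -0.82, *DSP* at -0.99 and *PERP* at 0.51 (adjusted p = 0.0366, edgeR quasi-likelihood). Of 13148 tested genes, 2593 were then higher and 2946 lower, beside 2056 and 2734 without the block. Without either PC9OR library, fewer members and fewer of all tested genes were called lower than in the main fit. Without PC9 replicate 2, more of both were called lower. Depth limits what can be said of *DSG3*, *DSC3* and *PKP1*.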
